A study of Mus musculus with 2 samples.

Results

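The 10 genes described here, Peg10, Sgce, Peg3, Grb10, Gnas, Nnat, Igf2, H19, Plagl1 and Mest, are imprinted genes of the mouse, and they were chosen by name from a table of 23284 gene symbols, most of them for their abundance in these cells. Their levels are therefore a description and carry no test. RNA was sequenced from GFP-positive cells that had been sorted from the dissociated pancreas of NGN3-EGFP embryos at e15.5, in mid-gestation when endocrine cells are forming. The strain is given as mixed, C57BL6, and the series' title calls the cells endocrine progenitors. The 2 libraries form 1 group and are numbered 1 and 2, and no unsorted, GFP-negative or other reference sample is analysed here. The labels say neither how the reporter is built, nor how many embryos each library pools, nor whether different litters were used for each, so SDs measure only the spread between these samples, which may be technical.

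An imprinted gene is transcribed mainly or only from the copy inherited from 1 parent, because DNA methylation laid down in the egg or sperm marks a control region in its cluster. Peg10, Sgce, Peg3, Nnat, Igf2, Plagl1 and Mest are known as genes of the paternal copy, H19 and, in most tissues, Grb10 as genes of the maternal copy, and Gnas as a locus with several promoters of opposite imprint. Many genes of this class act on fetal growth and on insulin or insulin-like growth factor signalling, and many decline in level after birth. Reads were counted per gene symbol, so the counts do not separate the parental copies.

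Replicates 1 and 2 held 12495143 and 12043734 counted reads, and 10651 genes reached 1 CPM (reads per gene scaled to a common library total) in both. Each of the 17 endocrine markers listed was detected at that level in each library, with a summed level of 38587 and 53922 CPM in replicates 1 and 2. Of 19 mesenchymal markers 8 reached 1 CPM in both libraries, and their sum was 557 and 270.2 CPM. The sums were 2204 and 1591 CPM for 10 acinar markers, 674 and 619.9 CPM for 7 ductal, 56.5 and 14.5 CPM for 11 immune and blood, 29.4 and 14.2 CPM for 10 endothelial and 25.5 and 10.9 CPM for 8 neural crest and glial markers. In bulk RNA, fewer cells of a type and less RNA per cell cannot be told apart. Intervals below are exact Clopper-Pearson intervals at 95% and, like the limit of 3 counts that a count of 0 allows (0.241 and 0.248 CPM), they cover counting error only.

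The 10 genes together took 2.43% of all counted reads in replicate 1 and 2.57% in replicate 2. Peg10 and Gnas alone held 68.2% and 72.5% of those reads. Peg10 had 118837 and 129897 reads in replicates 1 and 2, or 9553 and 10738 CPM, and ranked 4 and 5 among all genes by CPM. Gnas had 87812 and 94335 reads (7059 and 7798 CPM) and ranked 6 in both libraries. Peg3, at 2922 and 3179 CPM, ranked 11 in both, and Grb10, at 2756 and 2143 CPM, ranked 15 and 19. By CPM, which is not corrected for length, these 4 genes thus stood among the 20 highest genes in each library. The hormone genes Gcg, Ins1, Ins2, Iapp and Pyy were also among these 20.

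Nnat was at 801 and 887 CPM in replicates 1 and 2, Igf2 at 617 and 426 CPM, and H19 at 342 and 155 CPM. Mest had 176 and 163 CPM. Plagl1 was lower, at 116 and 59.2 CPM, and Sgce was lowest of all 10. Sgce had 250 reads in replicate 1, or 20.1 CPM (interval 17.7 to 22.7), and 86 reads in replicate 2, or 7.11 CPM (interval 5.69 to 8.78), and ranked 7032 and 9505. Sgce was thus not among the abundant genes and entered the group as the neighbour of Peg10. Plagl1, the next lowest, ranked 2035 and 3812. As mean ± SD over the libraries the levels were 10145 ± 838 CPM for Peg10, 7429 ± 523 for Gnas, 3051 ± 182 for Peg3, 2449.6 ± 433 for Grb10, 844 ± 60.6 for Nnat (SD, n = 2 each). They were 521 ± 135 CPM for Igf2, 249 ± 132 for H19, 169.8 ± 9.15 for Mest, 87.7 ± 40.3 for Plagl1 and 13.6 ± 9.18 for Sgce (SD, n = 2 each).

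**Figure D1:**
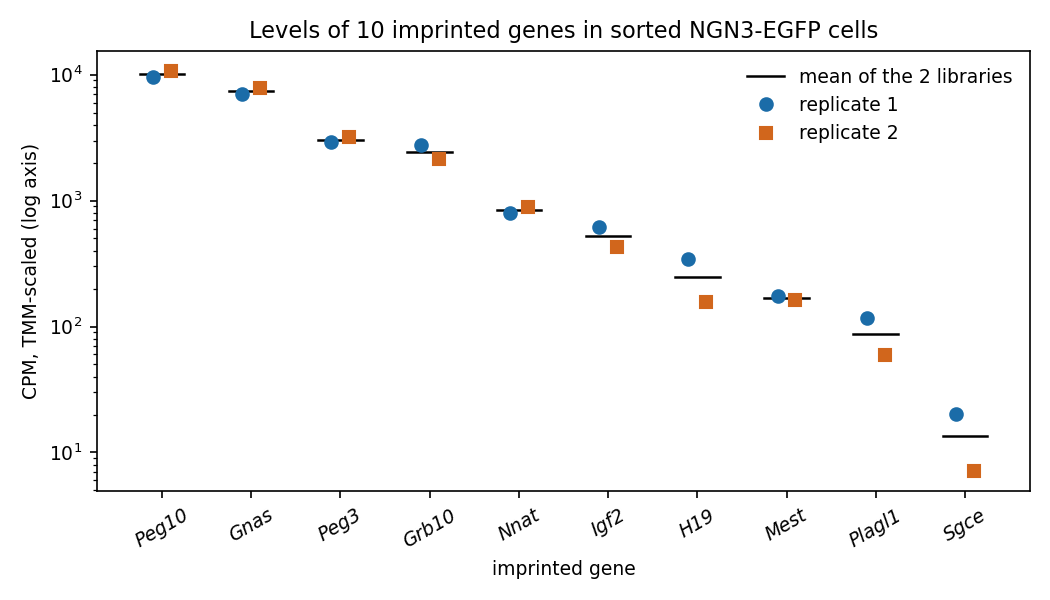
Level of each of the 10 imprinted genes in replicate 1 (circles) and replicate 2 (squares), in TMM-scaled CPM on a log axis, with a bar at the mean of the 2 libraries and the genes ordered by that mean. The means run from about 10145 CPM for Peg10 down to 13.6 CPM for Sgce, and the 2 libraries lie far apart for H19, Plagl1 and Sgce but close together for Peg10, Gnas, Peg3, Nnat and Mest.

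CPM rises with transcript length, so levels of different genes were compared per kb of exon. On that scale Peg10 was highest, at 1433 and 1611 CPM per kb in replicates 1 and 2, followed by Gnas at 680.3 and 752, Nnat at 557 and 617, Grb10 at 537 and 418 and Peg3 at 336 and 366 CPM per kb. The ranges of these 5 genes over the 2 libraries did not overlap. Among all genes with a length, Peg10 ranked 12 and 11 per kb of exon in replicates 1 and 2. Gnas ranked 28 and 27, Grb10 35 and 48 and Peg3 70 and 58, all lower than by CPM. Nnat, whose transcript is short, moved up from the fifth place by CPM. H19 at 149.7 and 67.9 CPM per kb and Igf2 at 118 and 81.1 CPM per kb overlapped and could not be ordered. Mest at 63.5 and 58.8, Plagl1 at 21.6 and 11.0 and Sgce at 10.7 and 3.79 CPM per kb came last. The top of this order depended on the transcript model of Gnas, whose exons from several promoters add up to 10.4 kb although its longest single transcript has 3.95 kb. Per kb of the longest transcript Gnas came first, at 1788 and 1976 CPM per kb, and Peg10 second.

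Peg10 derives from the gag and pol genes of a retrotransposon of the Ty3/Gypsy type and is needed for the placenta to form. It lies head to head with Sgce, which encodes epsilon-sarcoglycan, a membrane glycoprotein, and 0.099 kb separate the annotated ends of the genes on GRCm38. In spite of this shared start region their levels were far apart. The level per kb of exon of Peg10 was 134-fold that of Sgce in replicate 1 and 425-fold in replicate 2. Without the correction for length the ratios were 475 and 1510, and since the annotated exon length of Sgce runs from 1.88 kb in the basic transcript set to 10.6 kb in the full annotation, the ratio reached 757 and 2404 with the latter. The next genes outward were also far below Peg10. Casd1, a sialic acid O-acetyltransferase gene beyond Sgce, was at 88.8 and 99.7 CPM, and per kb Peg10 exceeded it by 63.9-fold and 64.0-fold. Ppp1r9a, which encodes the actin-binding protein neurabin and lies beyond Peg10, was at 232.5 and 282 CPM, with ratios of 80.7 and 74.9. Sgce was below both neighbours per kb of exon, at 10.7 and 3.79 CPM per kb against 22.4 and 25.2 for Casd1 and 17.8 and 21.5 for Ppp1r9a.

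Of 15 other genes derived from retroelements of this kind, 6 reached 1 CPM in both libraries, and the highest by mean CPM was Rgag4 at 57.6 and 103 CPM. Arc, a neuronal gene whose protein forms capsids, was at 72.7 and 64.8 CPM, and Rtl1, the imprinted relative of Peg10 in the Dlk1-Meg3 cluster, at 34.2 and 35.7 CPM. Per kb of exon these were 12.1 and 21.7 for Rgag4, 23.8 and 21.2 for Arc and 5.39 and 5.62 CPM per kb for Rtl1, far below the 1433 and 1611 CPM per kb of Peg10. Ldoc1l and Cxx1b were at 10.2 and 37.9 and at 22.7 and 11.7 CPM. Of the partners of Sgce, the dystroglycan gene Dag1 was at 289 and 182 CPM, Utrn (utrophin) at 84.97 and 40.01, Dmd (dystrophin) at 36.0 and 54.5, Dtnb (beta-dystrobrevin) at 14.7 and 35.2 and Sgcb (beta-sarcoglycan) at 23.95 and 15.4 CPM.

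Peg3 encodes a large zinc finger protein, and Usp29, of the ubiquitin-specific peptidase family, starts in the opposite direction from the same CpG island. The RefSeq promoter windows of both genes, each from 250 bases before to 50 bases after the start, share 263 of their 300 bases, and the start sites lie 164 bases apart. The Peg3 window is shown because a strongly and a weakly transcribed gene use the same DNA. It lies at chr7:6730370-6730669 on the minus strand of GRCm38.p6 and holds 13 CpG dinucleotides, in capitals here, the sites at which imprints are methylated.
Peg3: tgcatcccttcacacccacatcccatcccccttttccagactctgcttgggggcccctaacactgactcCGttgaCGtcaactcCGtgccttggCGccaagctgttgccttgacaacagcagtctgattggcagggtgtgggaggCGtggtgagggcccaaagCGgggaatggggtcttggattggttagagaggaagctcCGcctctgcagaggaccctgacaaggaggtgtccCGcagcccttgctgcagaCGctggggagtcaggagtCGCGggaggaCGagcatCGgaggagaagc
Peg3 had 36354 and 38462 reads in replicates 1 and 2, whereas Usp29 had 582 and 174. Peg3 was, per kb of exon, 57.5-fold above Usp29 in replicate 1 and 203-fold above it in replicate 2. On its other side, Zim1, a maternally expressed zinc finger gene, was at 73.6 and 64.8 CPM, and Peg3 exceeded it per kb by 35.7-fold and 44.1-fold. At both head-to-head pairs, Peg10 with Sgce and Peg3 with Usp29, the abundant gene was close between the libraries while its weak partner was higher in replicate 1. Abundant genes in general differed less, with a median absolute log2 ratio of 0.14 at 1000 CPM or more and 0.84 from 10 to 100 CPM. Of all genes with at least 10 reads, 22.3% were over 2-fold higher in replicate 1, so such a pattern is not particular to these pairs.

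**Figure D2:**
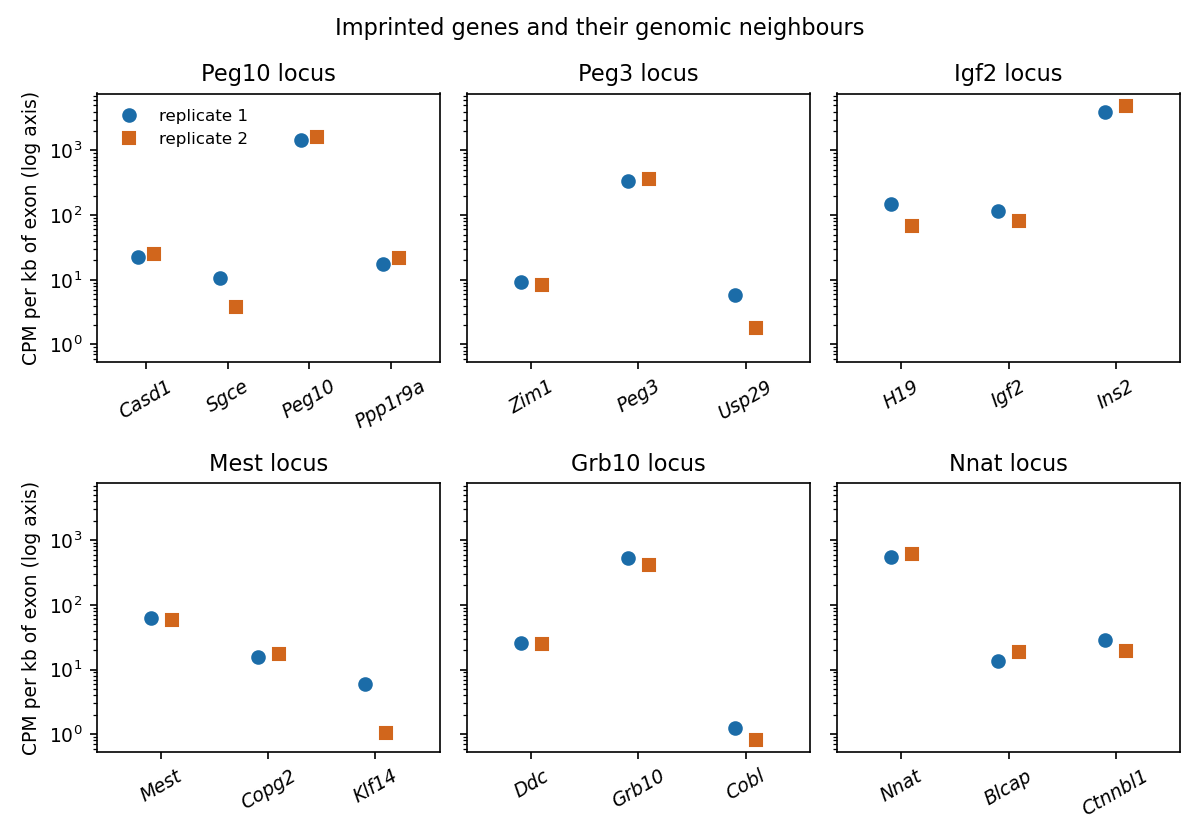
Level per kb of exon, on a log axis, of the imprinted genes and of named genes around them in 6 loci, in replicate 1 (circles) and replicate 2 (squares), in order along the chromosome for the Peg10, Peg3 and Igf2 loci. Peg10, Peg3, Grb10 and Nnat stand at least 16-fold above the other genes drawn in their panels, Mest stands about 4-fold above Copg2, and Igf2 and H19 are level with each other and far below Ins2. Cpa1, which lies 78.2 kb from Mest and was above it, is not drawn.

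Igf2 encodes the fetal growth factor IGF2, and H19, a long noncoding RNA, lies 72.6 kb away and shares its enhancers. In the textbook model the insulator between them lets each parental copy use only 1 of the genes. Igf2 had 7677 reads in replicate 1 and 5148 in replicate 2, and H19 had 4257 and 1878. Per kb of exon the ratio of Igf2 to H19 was 0.785 in replicate 1 and 1.19 in replicate 2, a mean log2 ratio of -0.05 ± 0.43 (SD, n = 2). The order of the 2 genes thus turned between the libraries and was within their spread, while by CPM Igf2 was higher in both, by 1.80-fold and 2.74-fold. In the annotation 70.4% of the exonic bases of Igf2 are shared with other genes, chiefly Gm49394 on the same strand. Gm49394 is not among the counted symbols, and the antisense gene Igf2os shares 98 bases with Igf2. How reads of overlapping genes were counted is not given in the sources used here, so the count of Igf2 keeps some uncertainty. Ins2, an insulin gene at 11.8 kb from Igf2, was at 5104 and 6461 CPM; it is imprinted in the yolk sac but known to be expressed from both copies in the pancreas. Igf2 had, per kb of exon, 0.0302 and 0.0165 of the level of Ins2. Th, the tyrosine hydroxylase gene next to Ins2, was at 31.6 and 19.01 CPM.

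The genes H19, Igf2 and Mest each hold the hairpin of a microRNA, shown here because their host RNAs were abundant. Capitals mark the seed, bases 2 to 8 of the mature strand, as RefSeq gives it on GRCm38.p6.
mmu-miR-675-5p: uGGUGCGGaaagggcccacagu
mmu-miR-675-3p: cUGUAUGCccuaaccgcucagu
mmu-miR-483-5p: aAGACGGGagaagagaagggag
mmu-miR-483-3p: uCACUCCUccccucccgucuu
mmu-miR-335-5p: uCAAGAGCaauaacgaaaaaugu
mmu-miR-335-3p: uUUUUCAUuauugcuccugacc
The first pair comes from H19, the second from Igf2 and the last from Mest, and no seed is shared between them. The rows of Mir675 and Mir483 held 0 reads in both libraries, and Mir335 held 4 reads in replicate 1 and 0 in replicate 2. In the annotation Mir675 shares 84 exonic bases with H19, so its row may depend on how overlapping reads were assigned. Mir483 and Mir335 lie within Igf2 and Mest but share no exonic bases with them. None of these rows measures the mature microRNAs.

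Transcripts of the pathway on which IGF2 acts were present alongside it. Of 35 other genes of insulin and IGF signalling, 31 reached 1 CPM in both libraries. Igf1, the other ligand, had 0.241 CPM in replicate 1, from 3 reads, and 9.26 CPM in replicate 2, and per kb of exon Igf2 was 86.7-fold above it in replicate 2. Igf2r, itself imprinted, encodes the receptor that removes IGF2, and was at 603 and 456 CPM. Per kb of exon Igf2 was 1.73-fold and 1.58-fold above Igf2r. The signalling receptors Igf1r and Insr were at 331 and 316 and at 207 and 174 CPM. Downstream, Pdpk1, the kinase that activates AKT, was at 529 and 476 CPM and Pik3r1, a regulatory subunit of PI3-kinase, at 424 and 290.4 CPM. The IGF2 mRNA-binding proteins also had reads, with Igf2bp2 at 162 and 236 CPM, Igf2bp3 at 109.6 and 215 CPM and Igf2bp1 at 169 and 55.2 CPM.

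Grb10 encodes an adaptor that binds the activated insulin and IGF1 receptors and dampens their signal. It had 34283 reads in replicate 1 and 25928 in replicate 2. Its level per kb of exon was 16.9-fold and 5.96-fold that of Grb7 and 128-fold and 21.0-fold that of Grb14, the other members of its family, whose levels were 76.4 and 168 CPM and 8.36 and 39.5 CPM. With the exon lengths of the full annotation the ratio to Grb14 was 261 and 42.9. Grb10 was also above the transcripts of the receptors it binds, at 537 and 418 CPM per kb against 29.0 and 27.7 for Igf1r and 22.2 and 18.6 for Insr. Of its neighbours, Ddc, which encodes an enzyme of serotonin and dopamine synthesis and is imprinted in the heart, was at 54.6 and 51.6 CPM, and Cobl, an actin nucleator gene, at 7.31 and 4.79 CPM. Per kb, Grb10 exceeded Ddc by 20.6-fold and 16.95-fold.

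**Figure D3:**
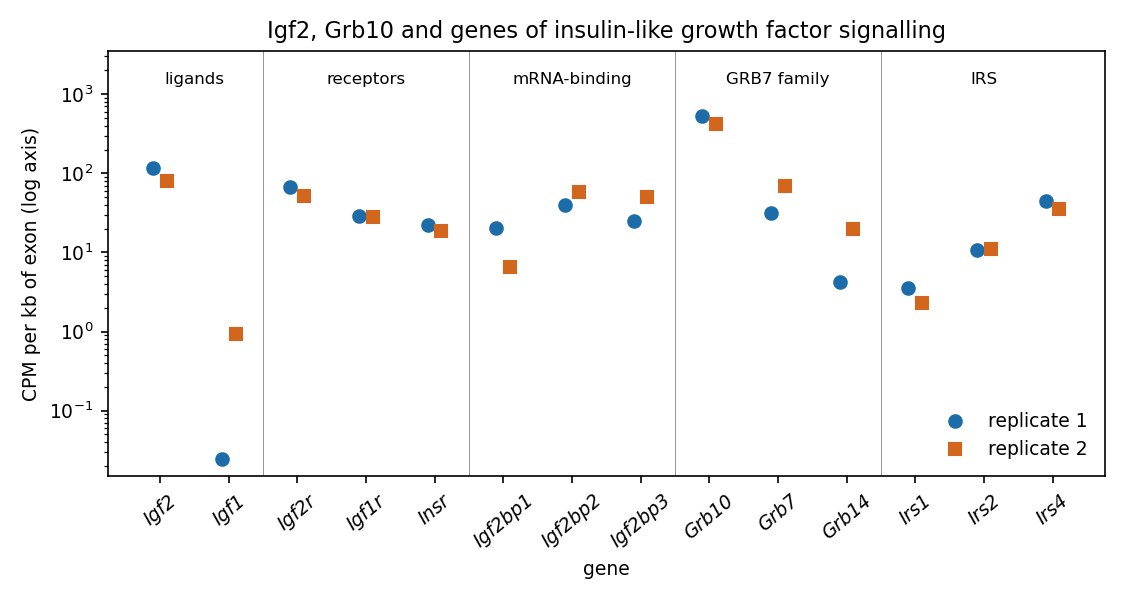
Level per kb of exon, on a log axis, of Igf2, Grb10 and genes of insulin-like growth factor signalling in replicate 1 (circles) and replicate 2 (squares), grouped by role. Grb10 is the highest gene drawn, at 537 and 418 CPM per kb, Igf2 lies just above its receptor gene Igf2r, and the point of Igf1 in replicate 1 rests on 3 reads.

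Gnas encodes the alpha subunit of the stimulatory G protein, which couples receptors such as those of glucagon and GLP-1 to adenylyl cyclase. Its 87812 and 94335 reads pool the transcripts of all its promoters. In the annotation 23.7% of its exonic bases are shared with genes on the opposite strand. Of these, Gm20721 is not among the counted symbols, and the overlap with Nespas, which is, covers 9.52%. The strand setting, which is not given in the sources used here, therefore bears on the count of Gnas. Nespas, 1 of these antisense genes, was at 21.5 and 15.0 CPM. Of 30 other genes of G proteins and cyclic AMP signalling, 26 reached 1 CPM in both libraries, and the alpha subunit next to Gnas in level was Gnao1, at 1355 and 1659 CPM. Per kb of exon Gnas was 4.35-fold and 3.93-fold above Gnao1, and 6.89-fold and 7.17-fold above Gnai2, an inhibitory alpha subunit. These ratios depend on the exon length of Gnas, and per kb of the longest transcript they were 7.29 and 6.58 for Gnao1 and 17.5 and 18.1 for Gnai2. Gnal, the alpha subunit most like that of Gnas and known from olfactory neurons, was at 25.4 and 5.54 CPM. Prkar1a, a regulatory subunit of protein kinase A, was at 902 and 765 CPM, the beta subunit gene Gnb1 at 624 and 623 CPM, Gnai3 at 384 and 371 CPM and Gna13 at 349 and 211 CPM. Th1l, the nearest measured gene downstream of Gnas, was at 72.4 and 63.1 CPM.

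Nnat encodes neuronatin, a small membrane protein of the endoplasmic reticulum that is found in brain and in beta cells, and it lies inside an intron of Blcap. Nnat had 9970 reads in replicate 1 and 10732 in replicate 2, and Blcap had 355 and 479. Nnat was, per kb of exon, 41.2-fold and 32.8-fold above its host gene. Ctnnbl1, beyond Blcap, was at 69.9 and 47.7 CPM. Mest, which encodes an enzyme-like protein of the alpha/beta hydrolase fold and is known from mesoderm and growing fat tissue, had 2193 and 1976 reads. Copg2, a coat protein gene that runs into Mest from the opposite strand, had 781 and 840 reads. Per kb Mest was 4.01-fold and 3.36-fold above Copg2, but 32.9% of its exonic bases overlap that gene, so the division of reads between them is uncertain. Klf14, a transcription factor gene in the same cluster, was at 18.4 and 3.14 CPM. Cpa1, an acinar marker 78.2 kb from Mest on the other side, was above Mest, at 203 and 182 CPM. Per kb of exon Cpa1 was at 129 and 115 CPM per kb, against 63.5 and 58.8 for Mest.

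Plagl1, also called Zac1, encodes a zinc finger transcription factor, and in humans its overexpression from 2 active copies is a known cause of transient neonatal diabetes. Plagl1 had 1445 reads in replicate 1 and 716 in replicate 2. Of its relatives, Plagl2 was at 498 and 266 CPM and Plag1 at 61.3 and 96.2 CPM. Plagl1 had, per kb of exon, 0.249 and 0.237 of the level of Plagl2, while its ratio to Plag1 was 1.68 in replicate 1 and 0.546 in replicate 2, on opposite sides of 1. Phactr2, a neighbour of Plagl1, was at 43.8 and 17.0 CPM, and Sf3b5, on the other side, at 4.10 and 18.0 CPM. Ltv1, which lies 46.4 kb from Plagl1, was at 32.4 and 121.7 CPM.

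Promoter windows of 7 of the 10 genes were matched by symbol in the RefSeq table, 16 windows in all, and Peg10, Sgce and H19 were not matched. The motif TGCCGC, the letters that the imprint-protecting zinc finger protein ZFP57 is known to bind when methylated, was searched on both strands. It was found in 6 of the 16 windows, or 37.5%, against 20% of the 9931 windows of genes at 1 CPM or more in both libraries and 11.6% of all 32841 windows. The windows with a match belonged to Grb10, Nnat, Igf2, Plagl1 and Mest, and both Mest windows with matches cover nearly the same DNA. The 3 genes shown next have a window with a match, at chr2:157559828-157560127 for Nnat, chr10:13090582-13090881 for Plagl1 and chr6:30737800-30738099 for Mest, all on the plus strand of GRCm38.p6, with the motif, read here on the opposite strand as GCGGCA, in capitals.
Nnat: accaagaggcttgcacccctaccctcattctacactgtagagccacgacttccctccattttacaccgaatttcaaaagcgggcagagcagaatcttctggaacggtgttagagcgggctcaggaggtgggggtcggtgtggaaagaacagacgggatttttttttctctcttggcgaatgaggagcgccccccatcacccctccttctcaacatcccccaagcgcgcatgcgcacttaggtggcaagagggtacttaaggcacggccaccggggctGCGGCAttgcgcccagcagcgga
Plagl1: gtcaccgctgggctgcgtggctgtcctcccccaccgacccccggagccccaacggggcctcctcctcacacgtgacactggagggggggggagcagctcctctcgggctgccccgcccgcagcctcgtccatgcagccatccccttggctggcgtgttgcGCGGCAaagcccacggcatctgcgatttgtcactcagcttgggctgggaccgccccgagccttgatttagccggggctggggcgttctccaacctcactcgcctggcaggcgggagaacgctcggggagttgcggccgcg
Mest: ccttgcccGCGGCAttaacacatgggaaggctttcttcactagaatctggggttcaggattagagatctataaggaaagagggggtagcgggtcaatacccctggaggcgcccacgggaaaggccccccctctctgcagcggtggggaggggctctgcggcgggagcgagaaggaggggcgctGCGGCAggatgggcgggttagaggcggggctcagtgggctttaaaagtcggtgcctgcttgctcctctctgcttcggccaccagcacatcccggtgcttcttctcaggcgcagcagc
The Mest window holds 2 matches and the others 1 each. A match is a run of letters and shows neither binding nor methylation. The 16 windows come from 7 genes, and some windows of Gnas and of Mest overlap. With so few windows, the share with a ZFP57 match was not tested and is not a result about these genes. The YY1 motif GCCATNTT, searched likewise, had no match in the 16 windows and a match in 8.67% of the windows of detected genes. A CTCF motif also had no match there and matched 0.0806% of the windows of detected genes. With so few windows, the absence of a match to either is not a result about these genes.

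The median ratio of observed to expected CpG was 0.670 in the 16 windows, against 0.769 in those of detected genes and 0.384 in all windows. It was over 0.6 in 62.5%, 72.1% and 35.8% of these windows. The windows of 1 gene could differ widely. Those of Igf2 ran from 0.100 to 0.896 and those of Grb10 were at 0.446 and 0.973, while the 4 Gnas windows lay between 0.650 and 0.903. The single windows of Peg3, Nnat and Plagl1 were at 0.463, 0.690 and 0.696.

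**Figure D4:**
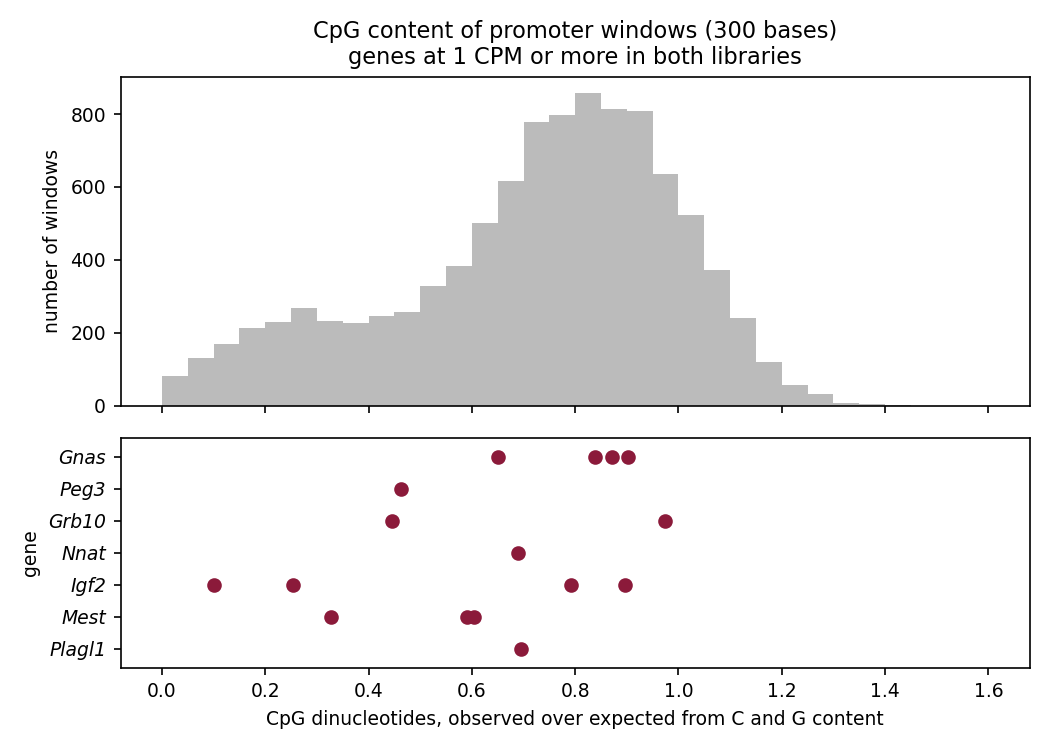
Above, the number of 300-base promoter windows by their ratio of observed to expected CpG, for genes at 1 CPM or more in both libraries. Below, the same ratio for each window of the 7 imprinted genes that have a RefSeq window, with or without a motif. Each window is 1 point, and the points spread from 0.100 for an Igf2 window to 0.973 for a Grb10 window.

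The 10 genes were not the whole of the imprinted transcripts. Of 64 other imprinted genes in the files, some of them imprinted in few tissues only, 45 reached 1 CPM in both libraries and 13 had no read in either. After Ins2, the highest by mean CPM were 2 noncoding RNAs of the Dlk1-Meg3 cluster, Meg3 at 1104 and 1505 CPM and Rian at 919 and 985 CPM. Igf2r came next by mean CPM, at 603 and 456. Per kb of exon Meg3 was at 70.4 and 95.9, Rian at 63.9 and 68.5 and Igf2r at 67.8 and 51.3 CPM per kb. On that scale Cd81, a tetraspanin gene, was above these 3 and also above Igf2, at 154 and 149 CPM per kb. Kcnq1ot1, the noncoding RNA that silences the Kcnq1 cluster, was at 184 and 308 CPM, and Cdkn1c, a cell cycle inhibitor in that cluster, at 58.8 and 59.3 CPM. Per kb of exon their order was the reverse, with 1.97 and 3.31 for Kcnq1ot1 and 30.3 and 30.5 CPM per kb for Cdkn1c. Phlda2 and Slc22a18 of the same cluster had no read. Dlk1, a Notch-like membrane protein, was at 177 and 112 CPM, and Ndn, a MAGE family gene, at 114 and 57.5 CPM. By CPM, Cd81 and H13 were at 237 and 229 and at 145 and 169 CPM, and Nap1l4 and Slc38a4 at 122 and 120.0 and at 104 and 108 CPM. Snrpn and Snurf are listed at 0 in both libraries. All 216 exonic bases of Snurf overlap Snrpn in the annotation, and how reads of overlapping genes were counted is not given in the sources used here, so these zeros do not show that the locus was silent.

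Of 22 genes that set, keep or erase imprints, 18 reached 1 CPM in both libraries. The DNA methyltransferase gene Dnmt3a was highest by mean CPM, at 814 and 760.0 CPM. The demethylating dioxygenases Tet3 and Tet2 were at 425 and 476 CPM and at 210.2 and 269 CPM. Trim28, the corepressor recruited by zinc finger proteins to imprinted regions, was at 260 and 188 CPM, and Zfp445, a zinc finger gene that protects imprints, at 218 and 164 CPM. No read of Zfp57 was counted in either library, nor of Dppa3. Dnmt1, which copies methylation at replication, was at 125 and 116 CPM.

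The libraries were set against each other with a two-sided exact binomial test on the reads of each gene, with Benjamini-Hochberg adjustment over all 13416 genes with at least 10 reads. This test compares the 2 libraries and no conditions, and it covers counting error only. All 10 genes passed, at an adjusted p of 0.05 or less, 6 of them higher in replicate 1 and 4 higher in replicate 2, but 85.8% of all genes tested also did, 41.7% toward replicate 1 and 44.1% toward replicate 2, so the count does not set the 10 apart. The sizes of the differences varied. Peg10, Gnas, Nnat and Peg3 were higher in replicate 2 by log2 ratios of 0.17, 0.14, 0.15 and 0.12. Mest was higher in replicate 1, with a log2 ratio (replicate 2 over replicate 1) of -0.11 and an adjusted p of 0.0173 by the exact binomial test. Grb10 was at -0.36 and Igf2 at -0.54. H19 and Sgce, at -1.14 and -1.48, were over 2-fold higher in replicate 1, and Plagl1 was just short of that at -0.97. A difference over 2-fold was found for 2 of the 10 genes and for 48.2% of all genes tested, and in the direction of these 2 genes for 22.3%.

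Read against genes of like abundance, the median absolute log2 ratio was 0.14 for genes at 1000 CPM or more, 0.39 from 100 to 1000 CPM and 0.84 from 10 to 100 CPM. Peg10, Gnas and Peg3 were near the value of their class and Grb10 above it. Nnat and Mest were below the value of theirs, and Igf2 and H19 above it. Plagl1 and Sgce also lay above the value of their class. The median log2 ratio of the 10 genes was -0.24, and that of all genes tested was 0.04.

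Markers of several other cell types also differed between the libraries. Of 16 mesenchymal markers with at least 10 reads, 12 were called higher in replicate 1 and 3 higher in replicate 2 by the same exact test, with a median log2 ratio of -1.81, where 41.7% and 44.1% of all genes tested were called in these directions. Of 8 acinar markers 6 were called higher in replicate 1 and 2 in replicate 2, with a median of -0.51, and of 6 ductal markers 4 and 1, with a median of -0.31. The immune and blood list and the neural crest and glial list, with 3 markers tested in each, gave 2 and 1 apiece, and 4 endothelial markers gave 2 and 2. Of 17 endocrine markers 4 were called higher in replicate 1 and 12 in replicate 2, with a median of 0.24. Col1a2, a type I collagen gene that lies 133 kb from Sgce, was at 122 and 46.95 CPM, Col1a1 at 77.2 and 27.5, Col3a1 at 83.4 and 18.9, Vim (vimentin) at 66.2 and 41.3 and Fn1 (fibronectin) at 148 and 109.9 CPM in replicates 1 and 2. Twist1 had no read in either library, and Postn, Tcf21 and Nkx3-2 had reads in replicate 1 and none in replicate 2, while Barx1 and Thy1 had reads in replicate 2 and none in replicate 1. Of the 10 genes, Igf2, H19, Plagl1, Sgce, Grb10 and Mest were higher in replicate 1, and Peg10, Gnas, Peg3 and Nnat in replicate 2. Other imprinted genes also went both ways. Dlk1, Ndn and Usp29 had log2 ratios of -0.66, -0.99 and -1.69, and Airn, Chrac1 and Kcnq1ot1 had 2.47, 1.98 and 0.74. The part of mesenchymal, acinar, ductal or other cells in these differences was not tested. Of the 49 other imprinted genes with at least 10 reads, 36 passed the exact test, 16 toward replicate 1 and 20 toward replicate 2, with a median log2 ratio of 0.06.

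The related lists are given against the same 85.8% of all genes, and no test compared them with each other. Of 33 insulin and IGF signalling genes with at least 10 reads, 15 passed toward replicate 1 and 16 toward replicate 2, with a median log2 ratio of 0.12. Of 28 G protein and cyclic AMP genes, 14 and 8 passed in these directions, with a median of -0.11, and of 18 imprint maintenance genes 9 and 8, with a median of -0.10. The counts were 3 and 4 of 9 retroelement-derived genes, with a median of 0.84, and 3 and 3 of 7 genes of the sarcoglycan complex, with a median of 0.09. Of 18 neighbours of the 10 genes 9 and 6 passed, with a median of -0.13, and of the 2 other PLAG genes 1 in each direction.

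**Figure D5:**
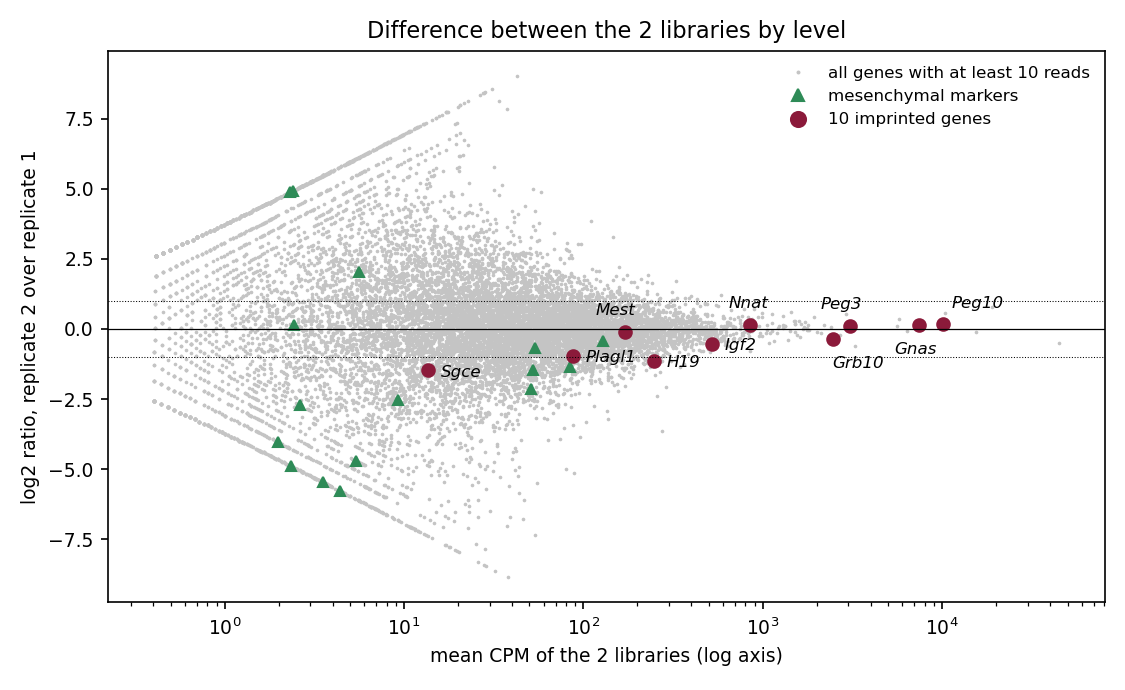
Log2 ratio of replicate 2 over replicate 1 against the mean CPM of both libraries (log axis) for all 13416 genes with at least 10 reads (grey), 16 mesenchymal markers (triangles) and the 10 imprinted genes (circles, named). Dotted lines mark a 2-fold difference. Peg10, Gnas, Peg3, Nnat and Mest lie near 0, and H19 and Sgce lie below the lower dotted line. Of the mesenchymal markers 10 lie below that line and 3 above the upper one, where 22.3% and 25.9% of all genes tested lie.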

How the data were processed

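Per the labels, RNA of sorted cells was sequenced from standard Illumina libraries. The authors deposited unnormalised counts for each gene symbol, 1 file per library. Per the submitters' processing notes the build was mm9 and the tools included TopHat2 2.0.4, Cufflinks 2.0.2, cutadapt, FastQC and DESeq, without roles. How reads were counted (program, annotation, strand, overlapping genes, multi-mapping reads) is not given in the sources used here.

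Counts were scaled to CPM with TMM factors (edgeR 4.0.16, R 4.3.3) of 0.9956 and 1.0044. Library differences were tested with the exact binomial test (SciPy 1.17.1), which was tested on simulated data; log2 ratios used a prior count of 2. With 1 group, edgeR has no contrast to test, and an exact permutation over 2 libraries cannot go below p = 0.5. Exon lengths came from the basic set of GENCODE M21 on GRCm38, not mm9, and 97.9% of symbols were matched; RefSeq promoter windows and microRNAs were matched by symbol.

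The members and lists were chosen with earlier results of these data known. Lists of 8 kinds of related genes and 7 kinds of cell type markers were used. The rule named the 10 members, other imprinted genes and neighbours averaging 10 CPM or more, and the 5 highest genes of each other list; genes without reads could be named. Others, such as Igf1, Igf1r, Insr, the Igf2bp genes, Grb7, Grb14, Gnal, Cobl, Dnmt1 and the less abundant markers, were chosen after their values were seen. The motifs were chosen for known binding factors of imprinted regions. Alternatives were other scalings (DESeq2 1.42.0 size factors among them), count filters, detection limits, length measures and leaving out each library.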

Additional observations from a re-analysis of the deposited data

How the results depend on the processing

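No paired analysis was possible because the series holds 1 group. The scalings and count filters tried left 10 of 10 genes past the exact binomial test and 2 over 2-fold, and moved no log2 ratio between the libraries by more than 0.014. Leaving the 10 most abundant genes out of the totals raised the CPM of Peg10, Peg3, Gnas, Nnat and Mest by more than the replicate SD, since the totals are then smaller. The mean log2 ratio of Peg10 over Sgce, 7.90 per kb of exon, was 9.73 without length correction, 10.40 with the full annotation and 9.13 per kb of the longest transcript, which follows from the length assigned to Sgce, and 7.07 to 8.73 with 1 library left out. That of Igf2 over H19, -0.05, turned to 1.15 without length correction, and was -0.07 with the full annotation, 0.11 per kb of the longest transcript and -0.35 to 0.26 with 1 library left out. The count of other imprinted genes detected, 45, ran from 35 at a limit of 5 CPM to 48 at 0.5 CPM, and was 46 to 47 with 1 library left out. Levels under 100 CPM, those of Plagl1 in replicate 2 and of Sgce, are limited by the spread between the libraries more than by counting error. The same held for abundant genes such as Peg10 and Grb10. Their SDs were 838 and 433 CPM, against intervals in replicate 1 of 9499 to 9607 and 2727 to 2785 CPM.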
